A study of Homo sapiens with 12 samples.

Results

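The RNAs that 2 biotinylated microRNA duplexes, miR-199a-5p and miR-424-3p, enriched or depleted alike in HEK293T cells are described here. HEK293T is an established human embryonic kidney line that expresses the SV40 large T antigen. Cells received 200 pmol of either synthetic duplex, were harvested 24 hours later, and the duplex with its bound RNA was captured on streptavidin beads. The 4 groups were the miR-199a-5p pull-down, the miR-199a-5p input, the miR-424-3p pull-down and the miR-424-3p input, each with 3 replicates on Illumina HT-12 arrays, and each input came from cells given the same duplex as its pull-down. All 12 arrays of the series were used, so every group carried a transfected duplex. The quantity followed was the mean enrichment, that is the average of the 2 differences between a pull-down and its own input on the log2 scale. A gene was counted as shared only when both pull-downs, tested one by one, moved the same way. No pull-down without a microRNA duplex was used here, so RNA held by the beads or by proteins that carry biotin and RNA held by both duplexes cannot be told apart. The labels only number the replicates, a supplementary legend of the study describes the transfections as independent replicates, and p-values measure the spread between these arrays.

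A microRNA guides an Argonaute protein to mRNAs, mostly through its seed, the bases near its 5′ end, and the RNA-induced silencing complex (RISC) then lowers their translation or stability. In a biotin pull-down the guide strand itself is the bait, and mRNAs held by the loaded complex come down with it. Streptavidin also binds biotin that cells attach to a small family of carboxylases, which use it to carry carbon dioxide. The mature sequences are shown because the shared genes are those that 2 guides with different seeds had in common. The sequences of the transfected duplexes were not used here, and one legend of the study names miR-199b-5p where the sample labels, which were taken as correct, have miR-199a-5p. The letters below are therefore the RefSeq sequences (GRCh38.p14) of the labelled microRNAs, 5′ to 3′, with bases 2 to 8, the seed, in capitals.
hsa-miR-199a-5p: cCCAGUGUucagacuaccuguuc
hsa-miR-424-3p: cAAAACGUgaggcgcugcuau
The first is 23 bases long and is encoded at 2 places, MIR199A1 (chr19:10817469-10817491, minus strand) and MIR199A2 (chr1:172144592-172144614, minus strand). The second is 21 bases long and is encoded by MIR424 (chrX:134546644-134546664, minus strand). The seeds of these RefSeq sequences hold the same base at 3 of their 7 positions, and the longest run of bases found in both guides has 3 bases.

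The 12 arrays had medians of 9.149 to 9.208 on the normalized log2 scale, and arrays of one group correlated at 0.983 or more across probes. Pull-downs of different microRNAs correlated at 0.924 to 0.939, inputs of different microRNAs at 0.977 to 0.995, and pull-downs with inputs at 0.907 to 0.956. The first principal component, with 53.6% of the variance, separated the 6 pull-down arrays from the 6 inputs, and the second, with 30.7%, separated the pull-downs of the 2 microRNAs. Of 10 genes chosen as marks of HEK293T, 8 were measured, among them the epithelial keratins KRT8 and KRT18, the intermediate filament VIM and the cadherin CDH2. Of 8 fibroblast genes only COL1A1 was among the probes, with a mean signal of 7.89, and of 8 blood genes only CD68, with a mean of 9.55. Precision is limited by the 3 arrays in each group.

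For the mean enrichment, 4838 of 15329 probes (31.6%) rose and 4749 (31%) fell at the threshold used throughout, an adjusted p of 0.05 (limma, one-sided in each tail, Benjamini-Hochberg over all probes). The deposited values were normalized between arrays, so every direction given here is relative to most other probes of an array and is no amount of RNA. In both pull-downs, each against its own input, 1789 probes (11.7%) were higher and 2383 (15.5%) lower. All of these were also called for the mean. The mean alone was a looser criterion. With miR-199a-5p 25.6% of probes were higher and 25.9% lower, and with miR-424-3p the shares were 26.3% and 28.8%. Of the probes higher for the mean, 1297 were called higher only with miR-199a-5p, 1471 only with miR-424-3p, 157 with neither, and 124 had opposite calls. Of those lower for the mean, the corresponding counts were 871, 1177, 219 and 99. A selection on the mean favours probes moved with both duplexes, so these counts are a description. Of the 197 probes higher by at least 1 log2 unit for the mean, 181 were called in both pull-downs, as were 538 of the 549 lower by as much.

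Taking the brightest probe of each of 9647 genes, 3562 genes (36.9%) were higher and 2432 (25.2%) lower for the mean. In both pull-downs 1361 genes (14.1%) were higher and 1107 (11.5%) lower, where the miR-199a-5p pull-down by itself called 29.9% higher and 20.1% lower and the miR-424-3p pull-down 30.3% and 25.7%. The brightest probe was chosen over all 12 arrays, pull-downs included, so the choice itself leans towards probes that were higher in the pull-downs. Among the 2785 further probes of these genes, 581 were higher and 1224 lower. The 2 enrichments correlated across genes at 0.449 (Pearson) and 0.424 (Spearman), a description only, since genes are not independent replicates. Opposite calls were made for 584 genes (6.05%), of which 442 had no call for the mean. Of the 1361 genes higher in both, 942 (9.76% of all genes) showed no called difference between the duplexes in the interaction test, 127 were more enriched by miR-199a-5p and 292 by miR-424-3p. Of the 1107 genes lower in both, 850 (8.81%) showed no called difference, 60 were more depleted by miR-199a-5p and 197 by miR-424-3p.

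**Figure D1:**
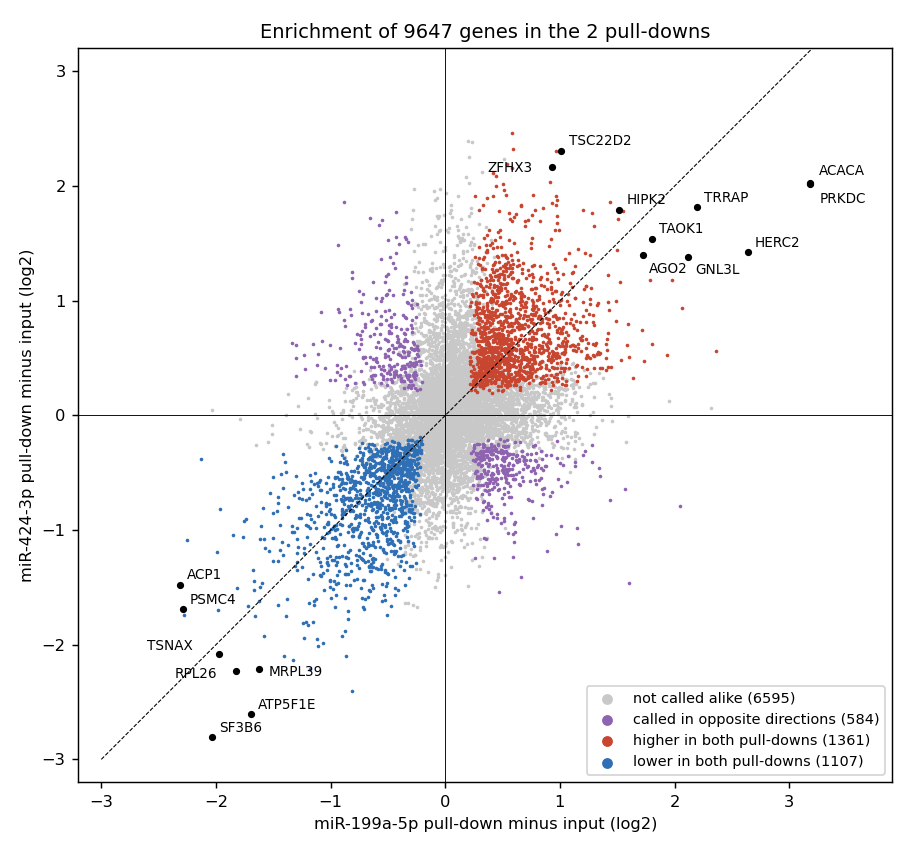
Each point is 1 of 9647 genes, with its difference between pull-down and input for miR-199a-5p on the x axis and for miR-424-3p on the y axis, both in log2 units, and the dashed line marks equal values. The 1361 genes higher in both pull-downs and the 1107 lower in both fill opposite corners, and 584 genes were called in opposite directions.

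PRKDC and ACACA led the shared enrichment. PRKDC, the kinase that acts with the Ku proteins in joining broken DNA ends, measured 9.69, 9.73 and 9.75 in the miR-199a-5p inputs and 13.28, 12.61 and 12.83 in the pull-downs. With miR-424-3p it measured 9.60, 9.72 and 9.64 in the inputs and 11.50, 11.90 and 11.62 in the pull-downs. All 6 pull-down arrays lay above all 6 inputs, the miR-199a-5p pull-downs highest of all. Its mean enrichment was 2.60 ± 0.10 (± SE here and below, log2), 6.08-fold, with an adjusted p of 1.06e-09 in limma. It was larger with miR-199a-5p (3.18) than with miR-424-3p (2.02), and the difference of 1.16 (95% interval 0.72 to 1.59) was called. Its other probes did not follow closely. One rose by 0.81 and the other, a dim one, stood at -0.09 without a call.

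ACACA, the cytosolic acetyl-CoA carboxylase that commits carbon to fatty acid synthesis and carries biotin, measured 10.28, 10.71 and 10.90 in the miR-199a-5p inputs and 13.22, 13.74 and 14.50 in the pull-downs. In the miR-424-3p arrays it measured 10.36, 10.59 and 10.65 in inputs and 12.14, 12.64 and 12.87 in pull-downs. The groups of inputs overlapped one another, the pull-downs did not overlap them, and the spread was wider than for PRKDC. Its mean enrichment was 2.60 ± 0.19 (6.07-fold), again larger with miR-199a-5p by 1.16 (0.37 to 1.96). A further ACACA probe rose by 2.78.

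The other carboxylases that carry biotin did not share this size, but their probes were dimmer. Mean signals over the 12 arrays were 8.07 for PC, 8.42 for ACACB, 8.79 for MCCC1 and 8.98 for PCCA, against 11.88 for ACACA. The transformation of the deposited values compresses differences of dim probes, and its part in these sizes was not tested. Of the 5 measured, 3 were higher and 1 lower for the mean, but only ACACA (20% of the 5, against 14.1% of all genes) was higher in both pull-downs. ACACB, the isoform at the mitochondrial surface, had a mean of 0.59 ± 0.09, which came from miR-199a-5p (1.04) and not from miR-424-3p (0.13, not called). Pyruvate carboxylase, PC, which feeds gluconeogenesis, stood at 0.61 and 0.04 likewise. PCCA, the biotin-carrying subunit of propionyl-CoA carboxylase, had no call for the mean at -0.02 ± 0.09, from 0.30 (not called) with miR-199a-5p and -0.33 (called lower) with miR-424-3p, a called difference of 0.63. MCCC1, the subunit of methylcrotonyl-CoA carboxylase that carries biotin, was lower in both, by 0.41 ± 0.09 and 0.60 ± 0.09. Of 4 measured genes for biotin-free subunits and biotin handling none was higher in both. HLCS, the ligase that attaches biotin, was higher for the mean (0.34 ± 0.06). It was called with miR-199a-5p (0.50) but not with miR-424-3p (0.19). PCCB, the partner of PCCA, was lower in both (mean -0.42 ± 0.08).

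Several enriched genes had no called difference between the duplexes. With 3 arrays in each group, the lack of a call does not show equal values. TRRAP, a scaffold of histone acetyltransferase complexes that belongs to the kinase family of PRKDC without kinase activity, measured 11.36, 11.47 and 11.20 in miR-199a-5p inputs and 14.27, 13.06 and 13.26 in pull-downs. In miR-424-3p arrays it measured 11.49, 11.53 and 11.25 in inputs and 13.24, 13.16 and 13.31 in pull-downs. One miR-199a-5p pull-down stood well above the other 5, and no pull-down reached down to an input. The enrichments were 2.19 ± 0.22 and 1.81 ± 0.22, and the interval of their difference ran from -0.29 to 1.05.

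TAOK1, a STE20-like kinase upstream of stress-activated MAP kinases, measured 8.76, 8.75 and 8.39 in the miR-199a-5p inputs and 10.50, 10.30 and 10.50 in the pull-downs. For miR-424-3p the inputs were 8.98, 8.64 and 8.94 and the pull-downs 10.32, 10.20 and 10.66. Inputs of both microRNAs overlapped, as did the pull-downs. The mean enrichment was 1.67 ± 0.10, and the difference lay between -0.16 and 0.68. HIPK2, a nuclear kinase that phosphorylates p53, measured 10.02, 9.79 and 9.57 in the miR-199a-5p inputs against 11.18, 11.28 and 11.46 in the pull-downs, and 10.12, 9.82 and 9.64 against 11.66, 11.58 and 11.72 with miR-424-3p. Its pull-downs lay above all inputs, those of miR-424-3p slightly higher. Its mean of 1.66 ± 0.09 had a difference between -0.68 and 0.13, and a further HIPK2 probe was higher only with miR-424-3p, by 0.58. MED12, a subunit of the Mediator kinase module, had a mean of 1.67 ± 0.14 (difference -0.83 to 0.38). IMMT, which organises mitochondrial cristae, had a mean of 1.65 ± 0.09, and its difference passed no threshold after adjustment although its interval, -0.81 to -0.03, leaned to miR-424-3p.

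AGO2, the slicing Argonaute and the protein that binds the guide, was itself among the 15 genes with the largest shared enrichment. Its mRNA measured 10.77, 10.62 and 10.30 in the miR-199a-5p inputs and 12.27, 12.35 and 12.25 in the pull-downs, then 11.12, 10.46 and 10.63 in the miR-424-3p inputs and 12.08, 12.05 and 12.29 in the pull-downs. The 6 pull-downs lay close together and above every input. The mean enrichment was 1.56 ± 0.11 (2.96-fold, adjusted p = 6.32e-08, limma), with a difference between -0.14 and 0.79.

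**Figure D2:**
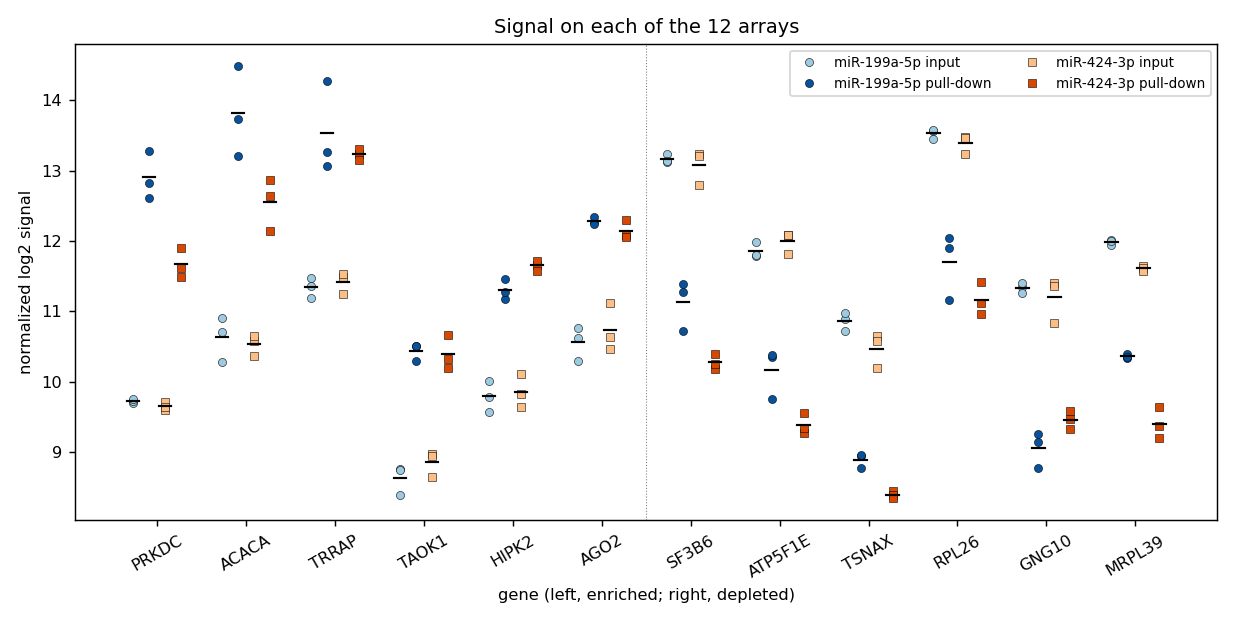
Normalized log2 signal (y axis) of 12 genes (x axis) on each of the 12 arrays, with inputs in pale and pull-downs in dark colours, circles for miR-199a-5p, squares for miR-424-3p and a bar at each mean of 3 arrays. The 6 genes on the left had higher signal in every pull-down array than in every input, and the 6 on the right lower signal.

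The remaining 7 of the 15 held 6 with a called difference between the duplexes. HERC2, a giant ubiquitin ligase, had enrichments of 2.64 (miR-199a-5p) and 1.42 (miR-424-3p), a called difference of 1.22 (0.66 to 1.77). GNL3L, a nucleolar GTPase, and MIX23 also leaned to miR-199a-5p, by 0.74 and 0.80. ZFHX3, a homeobox and zinc finger transcription factor, TSC22D2 and TFAP2A, a transcription factor of neural crest and epidermis, leaned to miR-424-3p by 1.24, 1.29 and 1.34. ZZEF1, a zinc finger protein, had a mean of 1.61 ± 0.15 with no called difference (-0.85 to 0.44). For GNL3L a further, dimmer probe stood at 0.06 without a call. The other TSC22D2 probe had opposite calls, at -0.84 for miR-199a-5p and 1.30 for miR-424-3p. TFAP2A had 1 further probe at 0.83, called higher, and a dimmer pair at -0.33 and -0.35, both called lower for the mean. Adjusted p-values of the 15 genes for the mean lay between 9.93e-10 and 7.48e-07 in limma, and 8 of the 15 had a called difference between the duplexes.

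SF3B6 and ATP5F1E led the shared depletion. SF3B6, the subunit of the U2 snRNP that touches the branch point adenosine of introns, measured 13.12, 13.24 and 13.13 in the miR-199a-5p inputs and 11.28, 11.39 and 10.72 in the pull-downs. For miR-424-3p it measured 12.80, 13.23 and 13.21 in inputs and 10.39, 10.18 and 10.25 in pull-downs. Every pull-down lay well under every input, and the miR-424-3p pull-downs were the lowest. Its mean was -2.42 ± 0.11 (0.187 of the input level, adjusted p = 1.36e-09, limma), and its depletion was larger with miR-424-3p by 0.77 (0.30 to 1.25). A further SF3B6 probe fell by 1.15. ATP5F1E, the epsilon subunit of ATP synthase, measured 11.78, 11.99 and 11.80 in miR-199a-5p inputs against 10.36, 10.38 and 9.75 in pull-downs, and 11.82, 12.09 and 12.09 against 9.56, 9.27 and 9.34 with miR-424-3p. It too was lower in all pull-downs and lowest with miR-424-3p, with a mean of -2.15 ± 0.11 and a difference of 0.91 (0.46 to 1.37).

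Other depletions had no called difference between the duplexes, which again does not show that they were equal. TSNAX, the partner of translin in a nuclease that removes passenger strands, measured 10.73, 10.89 and 10.98 in miR-199a-5p inputs against 8.95, 8.95 and 8.77 in pull-downs, and 10.19, 10.64 and 10.58 against 8.44, 8.39 and 8.34 with miR-424-3p. Its pull-downs lay more than a log2 unit under its inputs with both duplexes. The depletions were -1.97 ± 0.12 and -2.08 ± 0.12, with a difference between -0.25 and 0.46. Its other, dimmer probe did not follow, at 0.05 for the mean without a call. RPL26, a protein of the large ribosomal subunit, measured 13.45, 13.56 and 13.58 in miR-199a-5p inputs against 11.90, 12.05 and 11.16 in pull-downs, and 13.23, 13.48 and 13.47 against 11.42, 10.97 and 11.12 with miR-424-3p. One miR-199a-5p pull-down lay among those of miR-424-3p, and none overlapped an input. Its mean was -2.03 ± 0.13, with a difference between -0.16 and 0.96. Of the same kind were RPL21, another protein of that subunit (mean -1.75 ± 0.11, difference -0.16 to 0.83), and TCEA1, the elongation factor TFIIS that restarts stalled RNA polymerase II (-1.84 ± 0.09, difference -0.68 to 0.13). GNG10, a G protein gamma subunit, had a mean of -2.01 ± 0.11 and no called difference, with an interval from -1.0 to -0.08.

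The last 5 of the 12 largest depletions had called differences. PSMC4, an ATPase of the proteasome cap, and ACP1, a low molecular weight phosphatase, had means of -1.99 ± 0.10 and -1.89 ± 0.13 and fell further with miR-199a-5p. MRPL39 and MRPS18C, mitochondrial ribosomal proteins, and ATP5F1C, the gamma subunit of ATP synthase, had means of -1.91 ± 0.07, -1.75 ± 0.09 and -1.73 ± 0.11 and fell further with miR-424-3p. Adjusted p-values of the 12 lay between 5.84e-10 and 1.84e-08 in limma. Further probes of PSMC4 (-1.40 and -1.34), ACP1 (-1.42), GNG10 (-0.83) and TCEA1 (-0.43 and -0.37) were called lower too.

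Further probes of a gene were set against its brightest one. The 1361 genes higher in both had 407 further probes, of which 189 (46.4%) were also higher for the mean, 84 (20.6%) were lower and 134 had no call. The 1107 genes lower in both had 427 further probes, of which 317 (74.2%) were also lower, 18 (4.22%) higher and 92 not called. Over all further probes of all genes 20.9% were higher and 43.9% lower, so both shares lay above their background. The further probes were dimmer, with median signals of 8.75 and 8.89 against 10.5 and 10.1 for the brightest.

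Gene lists were then compared with the 36.9% of all genes higher and 25.2% lower for the mean, and the 14.1% and 11.5% called in both pull-downs. No set test was made, and the median of the mean enrichment over all genes was 0.06. Lists of PI3-kinase relatives, giant ubiquitin ligases and chromatin enzymes lay on the enriched side. The lists were chosen with earlier results of these data known. PRKDC and TRRAP belong to the kinase list and HERC2 to the ligase list, and all were named above among the largest enrichments. The shares of these lists are therefore a description and no test of the families. Of the 5 measured kinases related to PI3-kinase 4 were higher and 3 higher in both, with a median of 1.05. Besides PRKDC and TRRAP these were MTOR, the growth-sensing kinase (1.05 ± 0.18, higher in both), and ATM, which signals DNA breaks (0.50 ± 0.17, for the mean only). Of 12 giant ubiquitin ligases 8 were higher, 3 of them in both, and none lower, with a median of 0.59. UBR4 (1.21 ± 0.11) and HERC1 (1.10 ± 0.14) stood beside HERC2. When all probes of each gene were used, the median was 0.81 for the kinase list and stayed at 0.59 for the ligases.

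Of 39 chromatin remodellers and histone-modifying enzymes 24 were higher, 11 of them in both, and 5 lower, with a median of 0.28. The 5 lower became 3 without any 1 of 5 arrays, which were miR-199a-5p pull-down 2, miR-199a-5p inputs 2 and 3, miR-424-3p pull-down 1 and miR-424-3p input 2. The acetyltransferase EP300 (0.53 and 1.92), its paralog CREBBP (0.36 and 1.49) and ARID1A, a subunit of SWI/SNF (0.58 and 1.69), were higher in both and more so with miR-424-3p. KAT6A, another acetyltransferase, had a mean of 1.04 ± 0.10 with no called difference. Among 263 ZNF zinc finger genes 127 were higher, 49 of them in both, and 32 lower, led by ZNF827 (1.32 ± 0.08). Its enrichments of 1.22 and 1.42 had no called difference (-0.53 to 0.13). Of 14 spectrins, plakins and motor heavy chains 5 (35.7%) were higher and 2 (14.3%) of them in both, shares close to those of all genes. The pair was DYNC2H1, the dynein heavy chain of cilia (1.34 ± 0.13), and MACF1, a linker of actin and microtubules (0.45 ± 0.09).

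Of 33 measured genes of the silencing machinery 20 (60.6%) were higher and 5 (15.2%) lower, with a median of 0.29. Here 11 (33.3%) were higher in both and 1 lower in both. Next to AGO2 stood the GW182 proteins TNRC6A (0.42 and 1.13) and TNRC6B (0.82 and 0.80), which bridge Argonaute to the deadenylases. Others of the 11 act on the poly(A) tail, the cap or the body of the mRNA. They were DCP1A, an activator of decapping (mean 0.97 ± 0.08), XRN1, the 5′ exonuclease (0.95 ± 0.09), EDC4, a decapping scaffold (0.47 ± 0.08), PAN3 (0.57 ± 0.08) and CNOT6L (0.46 ± 0.06), both of deadenylases, LSM14A of P-bodies (0.66 ± 0.06) and CNOT4, a ubiquitin ligase of the CCR4-NOT complex (1.09 ± 0.07). CNOT4 rose mostly with miR-424-3p (1.91, against 0.26 with miR-199a-5p), a called difference. XPO5, the exporter of microRNA precursors, completed the 11 at 0.68 ± 0.10. The other measured Argonautes had smaller values, but their probes were dimmer. Mean signals were 9.10 for AGO1 and 8.06 for AGO3, against 11.43 for AGO2. The transformation compresses differences of dim probes, and its part in these sizes was not tested. AGO1 was higher for the mean (0.29 ± 0.07) but with miR-199a-5p only, and AGO3 had a mean of 0.19 ± 0.06. CNOT9, a subunit of CCR4-NOT, was the one gene lower in both (-0.43 ± 0.07), and DICER1, which cuts precursors, was lower for the mean (-0.33 ± 0.08) and with miR-424-3p (-0.43) but had no call with miR-199a-5p (-0.22).

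Genes of membrane proteins and of transport were taken next. Of 128 solute carriers outside the mitochondrial family 64 were higher and 15 lower, 27 of them higher in both, with the arginine transporter SLC7A1 at 1.16 ± 0.07 and SLC7A5, which imports leucine, at 0.86 ± 0.11. The miR-199a-5p pull-down called 53.1% of these carriers higher and the miR-424-3p pull-down 32%, near the 30.3% of all genes. Of 49 receptors, cadherins, integrins and matrix genes 26 were higher and 5 lower, 17 of them (34.7%) higher in both, among them CDH2 (0.88 ± 0.07), the Wnt co-receptor LRP5 (0.83 ± 0.08) and the phosphatase PTPRF (0.80 ± 0.06). Nuclear pore and transport genes went both ways, with 25 of 46 higher and 13 lower. TNPO1, an import receptor, was higher in both at 1.19 ± 0.08, while its relative IPO7 was lower in both at -1.08 ± 0.07. Of 30 mitochondrial carriers 13 were higher and 6 lower, with SLC25A23 at 1.12 ± 0.12 and a median of 0.05, close to that of all genes.

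Lists of subunits of the respiratory chain, the mitochondrial ribosome and the proteasome lay on the depleted side. Of 72 genes of the respiratory chain and ATP synthase 47 (65.3%) were lower and 5 higher, with 30 (41.7%) lower in both and a median of -0.37. After ATP5F1E and ATP5F1C came NDUFA12 of complex I (-1.58 ± 0.06) and COX6B1 of cytochrome c oxidase (-1.56 ± 0.09). Of 76 mitochondrial ribosomal proteins 48 were lower and 7 higher, with 29 lower in both and a median of -0.34, among them MRPL33 (-1.53 ± 0.10) and MRPS33 (-1.51 ± 0.09). Of 38 proteasome subunits 23 were lower and 2 higher, with 10 lower in both. PSMA3 of the core particle stood at -1.25 ± 0.09.

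Cytosolic ribosomal proteins were called both ways but lay on the depleted side. Of 72 genes 39 (54.2%) were lower and 17 (23.6%) higher, with a median of -0.20 and a median signal of 14.1. In both pull-downs 21 (29.2%) were lower and 11 (15.3%) higher, against 11.5% and 14.1% of all genes. A fold change of at least 1.5 left 1 gene of the list higher for the mean. RPL29 fell by nearly equal amounts with the 2 duplexes (-1.72 and -1.66). RPLP1, a stalk protein, was higher in both at 0.60 and 0.47, as were RPLP2 (0.63 and 0.32), RPL38 (0.65 and 0.41) and RPS19 (0.47 and 0.38). These 4 genes were picked after their values were seen, from the 11. RPL14 had a mean of 1.38 ± 0.17 that came from miR-424-3p (2.24), with 0.51 ± 0.24 and no call for miR-199a-5p. Many ribosomal protein genes have processed copies in the genome, and probes may not separate them. Of 76 genes in the list of spliceosome proteins 30 were lower, 22 of them in both, and 15 higher. HNRNPA1 stood at -1.35 ± 0.10 and its pseudogene HNRNPA1P33, which the list also counts, at -1.39 ± 0.15, values that near-identical sequence could share. The HNRNPA1 probe was dim, with a mean signal of 8.39 against 12.01 for the pseudogene probe. Whether the probes share sequence was not tested.

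Of 58 translation factors 19 (32.8%) were higher and 16 (27.6%) lower for the mean, near the 36.9% and 25.2% of all genes. In both pull-downs 3 (5.17%) were higher and 9 (15.5%) lower, against 14.1% and 11.5%. EIF3M of the initiation factor 3 complex fell in both (-1.66 ± 0.09) and EIF5A, which helps ribosomes past proline stretches, rose in both (1.30 ± 0.11). Of 17 glycolytic enzymes 6 were lower, 4 of them in both, led by PGAM1 (-1.41 ± 0.11) and PGK1 (-1.29 ± 0.08). Of 3 metallothioneins MT1X (-1.70 ± 0.10) and MT1F (-0.62 ± 0.10) were lower in both, whereas MT2A had opposite calls (-0.56 in the miR-199a-5p pull-down, 0.80 in the other). Ubiquitin-conjugating enzymes (10 of 24 higher, 7 lower), RAB GTPases (10 of 40 each way) and tubulins (8 of 20 higher) had medians of 0.07, 0.03 and 0.12, near that of all genes. Of 12 interferon response genes measured 5 (41.7%) were higher and 2 (16.7%) higher in both, near the 36.9% and 14.1% of all genes. The 2 were IFI6 (1.05 ± 0.07) and the RNA editor ADAR (0.50 ± 0.08). IFI6 rose by 0.47 with miR-199a-5p and by 1.62 with miR-424-3p, a called difference. Of the 8 HEK293T marks 4 were lower and 2 higher, with the neurofilament genes NEFL and NEFM lower in both (-0.44 ± 0.07 and -0.53 ± 0.12) and CDH2 higher in both. GATA3, a transcription factor, was the other one higher (0.15 ± 0.06), a call lost without any 1 of 10 arrays, all but replicate 1 of each pull-down. CD68, a lysosomal protein chosen as a blood mark, was higher in both, and COL1A1 had no call for the mean at -0.13 ± 0.07.

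Of all the lists, nuclear RNAs had the highest share lower for the mean. Of 93 small nuclear, small nucleolar and other nuclear RNAs 66 (71%) were lower and 4 higher, with 31 (33.3%) lower in both and 2 higher in both. The share lower was 37.6% in the miR-199a-5p pull-down and 73.1% in the other, and 31 of the 93 had a called difference. SNORD96A, a C/D box RNA, had values of -1.50 and -1.07, and SNORA18, an H/ACA RNA, -1.08 and -1.06. Their median signal was 8.11 against 9.41 for all genes, and the transformation of the deposited values compresses differences of dim probes. Many of these RNAs lie within introns of host genes, whose transcripts a probe could also bind. RNA was amplified and labelled with a kit before hybridization, and how far RNAs without a poly(A) tail entered that step was not tested. These calls are therefore of probes and need not report the mature RNAs. Lysates were cleared by centrifugation before capture, whereas a legend of the study calls the inputs total RNA, and the part of this step in these values was not tested. Of 12 hosts of small nucleolar RNAs 6 were lower, among them SNHG5 (-1.31 ± 0.10) and SNHG6 (-0.75 ± 0.10) in both. Of 17 replication-dependent histone genes, whose mRNAs lack a poly(A) tail, 9 were lower, 5 of them in both, led by H2AC25 (-0.92 ± 0.09) and H2AC18 (-0.85 ± 0.11). Histone genes within a cluster are close copies of one another, so their probes are uncertain as to the gene. The limit of the labelling step holds for histone probes too.

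**Figure D3:**
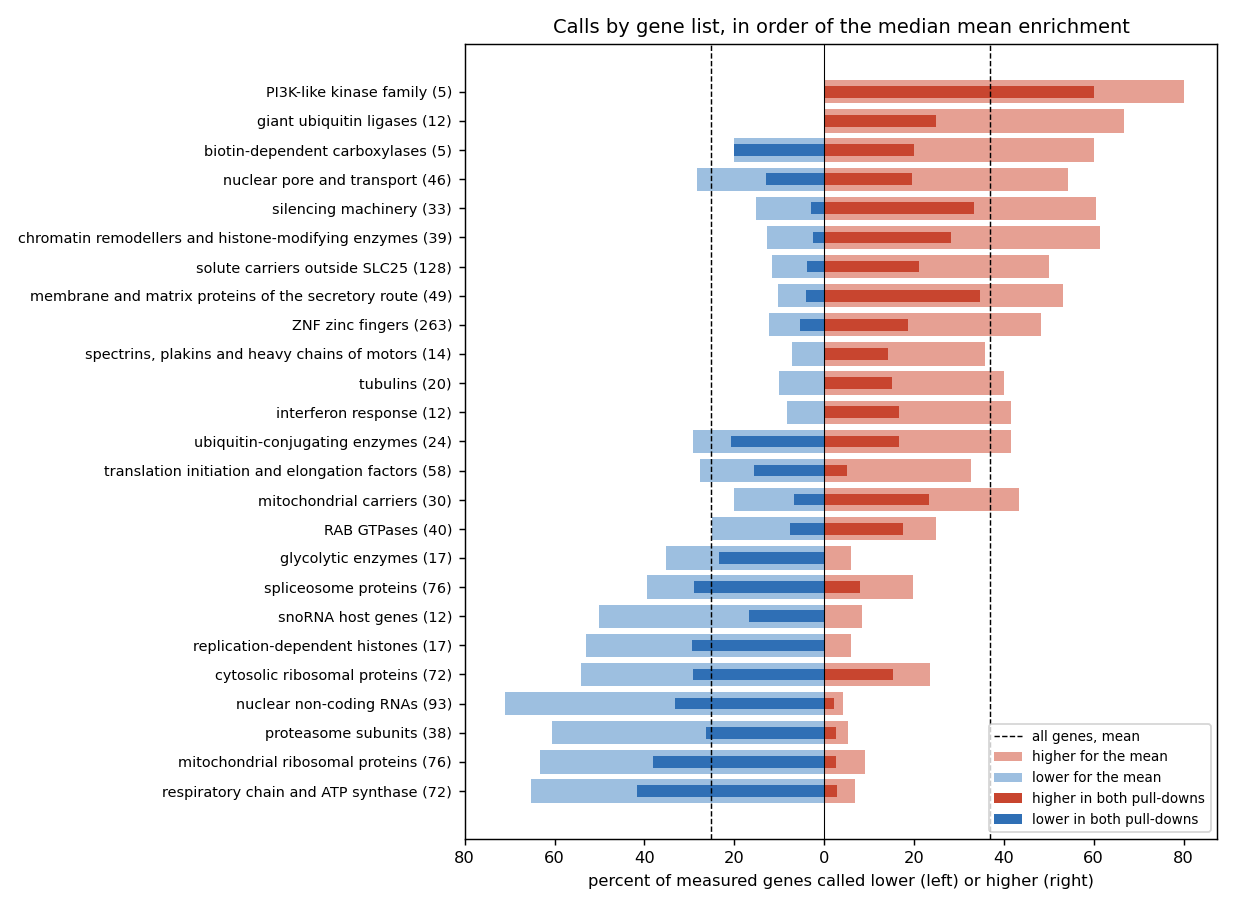
Percent of the measured genes of each list with at least 5 measured genes, marker lists left out (number measured in parentheses), called lower (left) or higher (right), with wide bars for the mean enrichment and narrow bars for calls in both pull-downs; the dashed lines are the shares of all genes for the mean, 25.2% lower and 36.9% higher. Lists are in the order of their median, from the kinases related to PI3-kinase (1.05) to the respiratory chain (-0.37).

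A feature that the contrast did not use was the length of the gene. RefSeq gene spans, introns included, were matched to 9645 of the 9647 genes and set in 5 classes. Genes under 10 kb (2248 genes) were higher for the mean in 27.9% and lower in 33.4%. The share higher then rose to 34.3%, 35.8% and 42% in the classes from 10 to 25, 25 to 50 and 50 to 100 kb, and to 49.7% of the 1588 genes of 100 kb or more. The share lower fell over the same classes to 27.5%, 25.5%, 22% and 13.2%. Calls in both pull-downs followed, with 9.34% higher and 14.5% lower in the shortest class against 22.4% and 5.35% in the longest.

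The median went from -0.04 to 0.20 for the miR-199a-5p pull-down and from -0.03 to 0.15 for the other between the shortest and the longest class, so the gradient was present with each duplex. The longest genes were dimmer, with a median signal of 9.01 against 9.64 for the shortest. When genes were split in 3 equal parts by signal, the contrast was widest in the part with the highest. Of the 334 genes of 100 kb or more in that part 66.5% were higher and 8.38% lower, against 28.3% and 40.6% of the 909 genes under 10 kb. In the part with the lowest signal the corresponding shares were 36.8% and 15% against 23.1% and 26.2%. Across 9645 genes the Spearman correlation with span was 0.181 for the mean enrichment and 0.202 and 0.117 for the single pull-downs of miR-199a-5p and miR-424-3p, given as a description because genes share the arrays. The median gap between the longest and shortest class was 0.20, and it was 0.35 among probes with a mean signal of at least 9.

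The named genes had the same order. Of the 15 with the largest shared enrichment 10 spanned 100 kb or more and none under 10 kb, whereas of the 12 with the largest shared depletion none reached 100 kb and 6 were under 10 kb. The 144 genes higher in both by at least 1 log2 unit for the mean had a median span of 57.5 kb, the 188 genes lower by as much 13.0 kb, and all genes 28.2 kb. Their median signals, 10.5 and 10.6, were close. Exceptions were plain on both sides, with TFAP2A, MIX23 and MED12 short among the enriched, and TCEA1 and TSNAX longer than most of the depleted. Span was measured on the gene and not on the mRNA, and it goes with the gene lists, whose median spans ran from 0.13 kb for nuclear RNAs and 9.08 kb for the respiratory chain to 187 kb for the giant ubiquitin ligases. The part of each in the other was not tested.

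**Figure D4:**
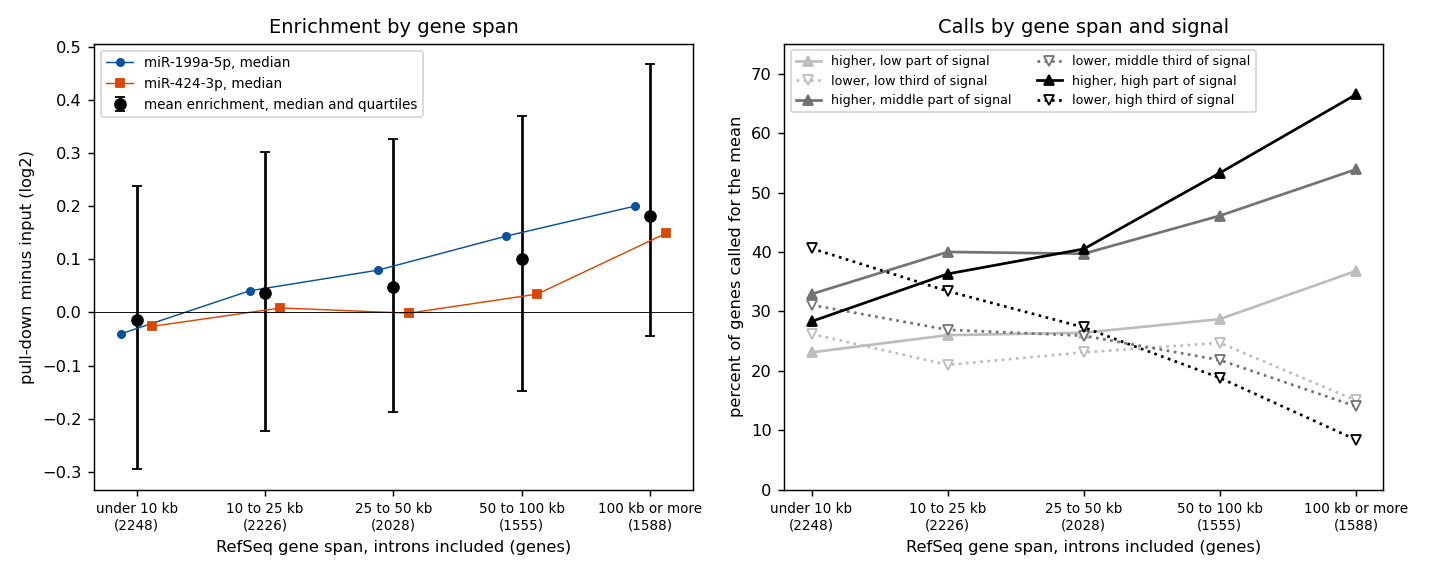
Left, the difference between pull-down and input (log2) by class of RefSeq gene span, with the median and quartiles of the mean enrichment in black and the medians of the 2 pull-downs in colour. Right, the percent of genes called higher (solid) or lower (dotted) for the mean in each class within 3 equal parts by signal over the 12 arrays; in the part with the highest signal the share higher goes from 28.3% to 66.5%.

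Among genes that code for no protein, 32 of 115 long non-coding RNAs were higher and 21 lower, with a median of 0.04, unlike the 72 small nucleolar RNAs, of which 4 were higher and 53 lower. Of 133 transcribed pseudogenes 44 were higher and 50 lower, with a median of -0.05. Over all 9647 genes 36.9% were higher and 25.2% lower, with a median of 0.06. Probes with no single gene symbol, 2897 in number, were higher in 695 cases (24.0%) and lower in 1093 (37.7%), against 31.6% and 31% of all probes.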

How the data were processed

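The authors deposited normalized log2 values of 12 Illumina HT-12 arrays, 3 in each group, for which the submitters' processing notes name lumi 2.2.1. According to the methods the steps were background adjustment, a variance-stabilizing transformation and robust spline normalization. That transformation compresses differences of dim probes. A table of signals before normalization was not used, because the names of its 24 columns of per-sample values matched no sample label. Depth does not apply to arrays, and the 3 arrays in a group limit the precision.

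Samples were grouped from titles and characteristics. A linear model with 4 groups was fitted to 15329 probes with lmFit and eBayes (limma 3.58.1, R 4.3.3), with 8 residual degrees of freedom. Contrasts were the mean of the 2 enrichments, each enrichment, and their difference, tested in each tail with Benjamini-Hochberg adjustment over all probes and a threshold of 0.05. The scripts were tested on simulated data. Probes were named from the platform annotation and the RefSeq table of GRCh38.p14, and each gene was represented by its brightest probe over the 12 arrays. No build was stated for the files, so no coordinates were given for the genes measured. Those of the microRNA genes are from RefSeq.

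The members and gene lists were chosen with earlier results of these data known. Named genes were the 15 largest mean enrichments and the 12 largest depletions among genes called for the mean and in both pull-downs whose 3 pull-down arrays of each microRNA were all beyond its 3 inputs, the 5 largest each way without a called difference, up to 4 members with the largest changes from each list, and any member of the biotin and silencing lists. Symbols of uncharacterised loci were passed over. Protein length classes had been planned, but gene span took their place, since protein sequences were not used here. Alternatives were a further normalization of the deposited values (median scaling, cyclic loess or quantile), an additive fit, weights for arrays, blocks by replicate number, tests of both tails together, a minimum fold change of 1.5, a minimum mean signal of 9, and fits without each array in turn.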

Additional observations from a re-analysis of the deposited data

Results flagged for a closer look

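Genes with large shared changes whose size differed between the 2 duplexes, by the interaction test in limma, are given here with the difference of the enrichments (miR-199a-5p minus miR-424-3p, log2). All moved the same way in both pull-downs. Among the enriched genes the difference was 1.16 for PRKDC, 1.16 for ACACA, 1.22 for HERC2, 0.74 for GNL3L and 0.80 for MIX23, each larger with miR-199a-5p. It was -1.29 for TSC22D2, -1.34 for TFAP2A and -1.24 for ZFHX3, each larger with miR-424-3p. Among the depleted genes the difference was 0.77 for SF3B6, 0.91 for ATP5F1E, 0.59 for MRPL39, 0.70 for MRPS18C and 0.80 for ATP5F1C, which fell further with miR-424-3p. It was -0.60 for PSMC4 and -0.84 for ACP1, which fell further with miR-199a-5p. Over all probes 18.8% had a difference called towards miR-199a-5p and 18% towards miR-424-3p.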

How the results depend on the processing

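The 27 genes with the largest shared changes kept their direction and call for the mean under all 22 alternatives, and no value moved by more than 1.12 times. Of all 147 called genes chosen by the naming rule, 36 lost their call when a fold change of 1.5 was required, among them AGO1, DICER1, PC, MCCC1, EDC4, PAN3, ATM, MACF1, NEFL and NEFM. Without 1 array 4 lost it (MCCC2, DGCR8, TARBP2 and GATA3), and under the other alternatives 6 (MCCC2, DGCR8, GATA3, SLC5A6, TUBB3 and VIM). A fold change of at least 1.5 left 1379 probes higher and 1634 lower for the mean, and 445 higher and 999 lower in both pull-downs. Requiring a mean signal of at least 9, which tested 8315 probes, left 3053 higher and 2778 lower for the mean and 1429 lower in both. Leaving out each array in turn gave 4549 to 4764 probes higher and 4452 to 4756 lower for the mean, and 1527 to 1795 higher and 2137 to 2356 lower in both. With the replicate number as a replicate block the counts were 4987 and 4877 for the mean and 1944 and 2496 in both, and with a block within each microRNA 4835, 4731, 1809 and 2367. Deviations of miR-424-3p arrays with the same number correlated at 0.134, 0.0598 and 0.258, and those with different numbers at -0.229 to 0.0769. For miR-199a-5p the same numbers gave 0.0751, 0.0207 and -0.1, and different numbers -0.135 to 0.128. Whether the number paired a pull-down with its input therefore stayed uncertain, more so for miR-424-3p. PCCA, without a call throughout, changed sign without 1 of 5 arrays, and its mean ran from -0.0809 (without miR-424-3p pull-down 2) to 0.0238 (without miR-424-3p pull-down 3) over the arrays left out. The gap between the longest and shortest genes was 0.18 to 0.22 without each array and 0.35 at a mean signal of at least 9. Of the counts of list members under the alternatives, 130 moved by more than 1.5 times and 1188 did not. With the additive fit RAB GTPases lower became 6 and translation factors higher 12, and with quantile normalization cytosolic ribosomal proteins higher became 9. The cause was not tested. Respiratory chain genes higher, 5 of 72, ranged from 2 to 8 over these fits.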
